A study of Mus musculus with 4 samples.

Results

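The histone genes measured here are the linker (H1) and core (H2A, H2B, H3 and H4) histone genes on the Affymetrix Mouse Gene 2.0 ST array. They were taken as every probe set whose annotation holds a gene symbol beginning Hist1h, Hist2h, Hist3h or Hist4h, or H1f, H2ac, H2bc, H3c or H4c with a number. That rule gave 68 of the 41345 probe sets, covering 66 gene symbols, all in the newer naming. RNA came from naive CD4+ T cells, sorted as CD62L high, CD44 low and CD25 negative from pooled spleen and lymph nodes of C57BL/6 mice. The study compared TACI-/- mice, which lack TACI, a receptor for the cytokines BAFF and APRIL, with wild-type (WT) mice, on 2 arrays per genotype. The sources used here do not give the ages of the mice, the kind of TACI-/- allele or the number of mice in a pool. The targeted gene, Tnfrsf13b, lay below the low-value filter used here (3.74 to 3.77 log2 units) on every array, at 2.73 and 3.09 in TACI-/- cells, against 2.95 and 3.02 in WT cells, so its probe set does not check the genotype.

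Histones are the proteins that package DNA. H2A, H2B, H3 and H4 form the core of the nucleosome, and H1 binds the linker DNA between nucleosomes. Most of these genes lie in clusters, lack introns and are transcribed chiefly in S phase, when new DNA must be packaged. Their mRNAs typically end in a stem-loop in place of a poly(A) tail. Naive T cells are mostly resting cells. Replacement variants such as H2A.Z and H3.3 are instead made throughout the cell cycle from genes elsewhere in the genome. The sources used here do not say how the RNA was primed for labelling, and priming decides how well mRNAs without a poly(A) tail are measured.

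The mouse annotation placed 53 of the 66 genes on chromosome 13 (the Hist1 cluster), 10 on chromosome 3 (the Hist2 cluster), 2 on chromosome 6 and 1 on chromosome 15. RefSeq promoter sequences (GRCm38.p6) were matched for 61 of the 66 genes, in 62 windows. In the 250 bases before the start of each gene, 5 short motifs known from histone promoters were searched on both strands, and no motif contains another. CCAAT, known as a binding sequence of NF-Y, was present in 17 of 17 H2A, 15 of 15 H2B, 8 of 10 H3, 7 of 9 H1 and 3 of 11 H4 windows, against 33.8% of all 32851 promoter windows. GGTCCG, part of the H4 promoter element that HINFP is known to bind in human cells, was present in 8 of 11 H4 windows. It was present in 1 H1, 1 H2B, 1 H3 and 0 H2A windows, and in 6.72% of all windows. ATTTGCAT, the octamer bound by POU2F1 (Oct-1), was present in 7 of 15 H2B and 6 of 17 H2A windows and in 0 of the H1, H3 and H4 windows, against 1.6% of all windows. AAACACA, known as the H1 box, was present in 5 of 9 H1 windows, 2 H2A, 2 H2B and 0 H3 and H4 windows, against 6.25% of all windows. TATAAA was present in 4 H1, 7 H2A, 7 H2B, 4 H3 and 6 H4 windows, against 12.4% of all windows. The windows of 9 H2A and 9 H2B genes overlap that of another histone gene, because H2A and H2B genes often sit in divergent pairs, so those counts are not independent.

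The 150 bases before the start of 6 genes are shown 5′ to 3′ on the gene's strand, with these motifs (either strand) in capitals. Each gene has a probe set that carries its symbol alone and passed the low-value filter. They set the promoters of the H4, H2B, H1 and H2A classes side by side. H4c9 lies at chr13:22041363-22041512 (minus strand) and H4c12 at chr13:21750554-21750703 (minus strand). H2bc3 lies at chr13:23746584-23746733, H2bc18 at chr3:96269550-96269699, H1f2 at chr13:23738657-23738806 and H2ac10 at chr13:23533725-23533874, all on the plus strand.
H4c9: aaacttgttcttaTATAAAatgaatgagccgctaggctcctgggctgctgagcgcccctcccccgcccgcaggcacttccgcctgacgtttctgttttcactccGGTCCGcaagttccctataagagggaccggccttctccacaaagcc
H4c12: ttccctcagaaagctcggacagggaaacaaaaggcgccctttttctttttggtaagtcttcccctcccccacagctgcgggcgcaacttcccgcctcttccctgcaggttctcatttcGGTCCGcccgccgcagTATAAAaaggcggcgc
H2bc3: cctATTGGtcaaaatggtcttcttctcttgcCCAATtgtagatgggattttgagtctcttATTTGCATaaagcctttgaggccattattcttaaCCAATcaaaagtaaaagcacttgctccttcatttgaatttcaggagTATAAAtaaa
H2bc18: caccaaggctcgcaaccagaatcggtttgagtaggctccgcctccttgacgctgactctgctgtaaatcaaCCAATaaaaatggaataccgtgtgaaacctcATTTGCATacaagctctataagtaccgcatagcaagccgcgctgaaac
H1f2: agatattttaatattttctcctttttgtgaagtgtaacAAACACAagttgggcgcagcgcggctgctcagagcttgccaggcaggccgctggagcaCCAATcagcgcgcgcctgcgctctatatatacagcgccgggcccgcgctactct
H2ac10: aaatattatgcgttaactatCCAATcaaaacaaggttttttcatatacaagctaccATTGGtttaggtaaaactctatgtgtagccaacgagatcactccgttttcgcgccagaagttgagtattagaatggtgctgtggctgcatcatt
Counting back from the base before the gene's start as -1, GGTCCG began at -46 in H4c9 and at -32 in H4c12. The octamer began at -90 in H2bc3 and at -48 in H2bc18, each time with CCAAT nearby. H2ac10 carried CCAAT in both orientations, and H1f2 carried the H1 box upstream of CCAAT. A match describes letters in the window and does not show binding.

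Sequence sharing within the family limits what a probe set can name. Of the 68 probe sets, 30 carried 1 symbol and 38 several, up to 13 H4 genes on a single set. The 12 H3 probe sets all carried several symbols, and H3 proteins of these genes are nearly identical. One probe set (17291195) carried H1f4 together with 3 H2B genes. In 3 cases a pair of probe sets held the same values on all 4 arrays, so the 31 probe sets that passed the low-value filter held 28 distinct sets of values. Probe sets that share symbols can share probes, so they are neither separate genes nor replicates. The symbol H4bc24, which some H2B sets also carry, is no member by the rule and belongs to an H2B gene (older symbol Hist1h2br).

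To be tested, a probe set had to reach a filter level of 3.74 to 3.77 log2 units on at least 2 arrays. The level is the 40th percentile, on each array, of the sets that carry a single symbol. On this criterion 31 of 68 histone probe sets were tested, 12 with 1 symbol and 19 with several. By class, 1 of 9 H1, 9 of 18 H2A, 11 of 16 H2B, 3 of 12 H3 and 6 of 12 H4 probe sets passed, and so did the mixed set of H1f4. Of the 37 that did not, 35 were below the filter on every array, and their values ran between 1.44 and 4.17. The filter was passed on 2 arrays only by H2bc9 and H4c1. On the other side of it, H2bc12 (highest value 4.17) and H1f10 (highest value 3.90) passed on 1 array each. Brightness depends on a set's probes, so levels of different probe sets are not compared.

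**Figure D1:**
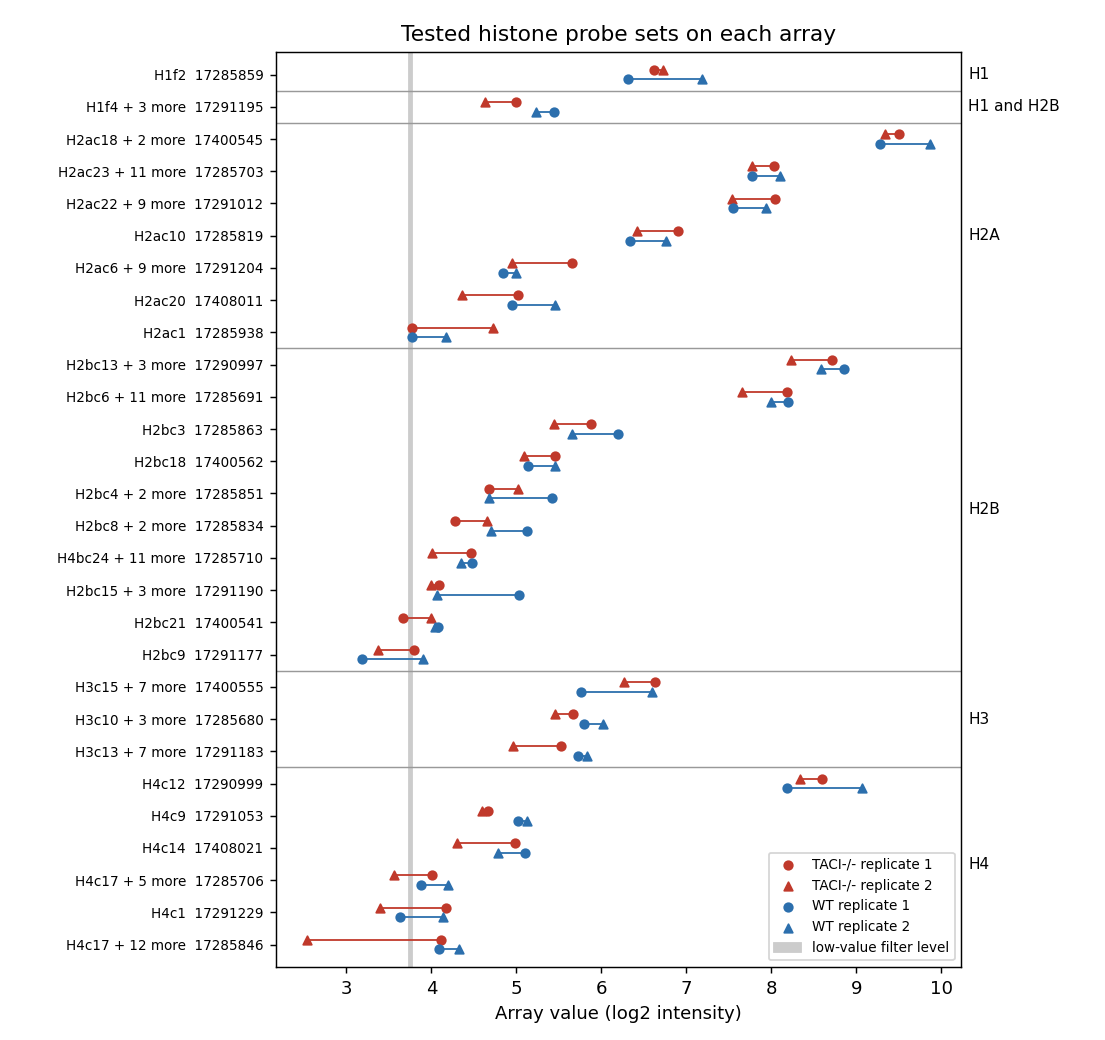
Log2 intensity (horizontal axis) of the 28 distinct tested histone probe sets on each array, by class. Red symbols are TACI-/- arrays and blue symbols WT arrays, circles are replicate 1 and triangles replicate 2, lines join arrays of a genotype, and the grey band marks the filter level. The red and blue spans overlap for most probe sets, and the set of H4c9 alone is among those that stay apart.

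No histone probe set passed an adjusted p under 0.05, either higher or lower (limma, Benjamini-Hochberg over 15966 tested probe sets). Of all tested probe sets, 0.0626% passed as higher in TACI-/- cells and 0.0251% as lower. The smallest adjusted p of a histone probe set was 0.491. At an unadjusted limma p under 0.05, 0 histone probe sets were higher, against 4.3% of all tested, and 3 of 31 (9.68%) were lower, against 3.86%. The 3 were H4c9, the H3 probe set 17291183 and the mixed H1f4 set. With an array left out, their log2 fold changes lay between -0.49 and -0.40, -0.81 and -0.24, and -0.71 and -0.34, in that order. With at least a 1.5-fold change required as well, 0 were higher and 0 lower, against 1.39% and 1.14% of all tested. Counts of sets past a p threshold with an array left out are not given, because a genotype then has a single array.

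Histone values nevertheless lay mostly on the lower side in TACI-/- cells. The log2 fold change was below 0 in 25 of 31 tested probe sets (80.6%; 22 of the 28 distinct ones), against 50.1% of all tested. Its median was -0.18, against 0.00 over all tested probe sets, and values ran from -0.88 to 0.39. Both TACI-/- arrays lay below both WT arrays for 6 histone probe sets (19.4%, against 18.6% of all tested) and above them for 0 (against 19.6%). The median was -0.29 without TACI-/- replicate 1 but -0.02 without TACI-/- replicate 2, so much of the shift rests on TACI-/- replicate 2. With no low-value filter, over all 68 sets, it was -0.07. In sorted cells, fewer cells making a transcript and less of it per cell cannot be told apart. Because neighbouring and near-identical genes give these values, the 31 are far from independent.

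**Figure D2:**
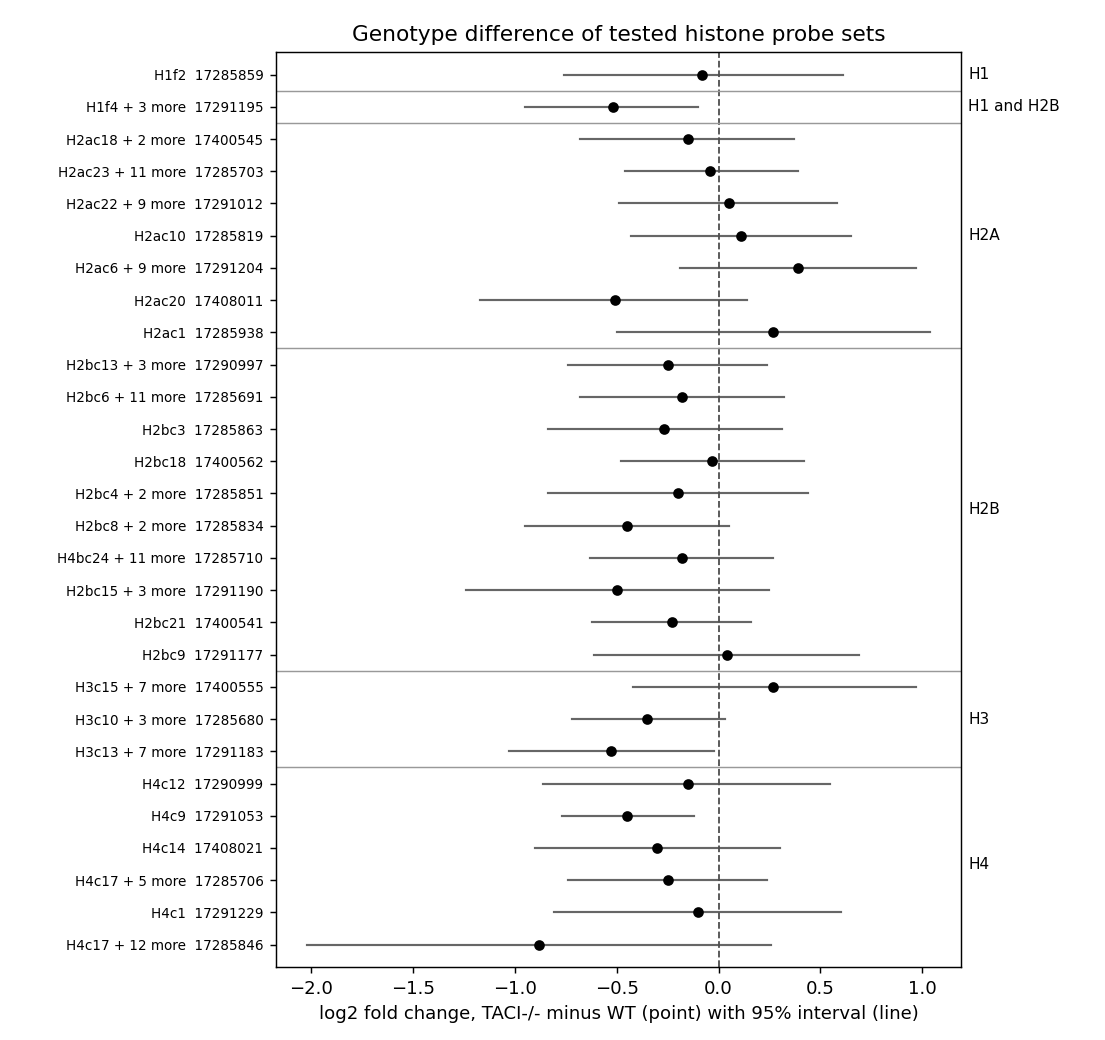
Log2 fold change (TACI-/- minus WT, points) with its 95% interval (lines, from the limma standard errors) for the 28 distinct tested histone probe sets. Intervals of 3 probe sets, H4c9, the mixed H1f4 set and the H3 set 17291183, lie below 0; these are not adjusted for the number of tests.

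Among H1 genes, which encode the linker histones, only H1f2 (H1.2) was tested. It was at 6.62 and 6.72 log2 units in TACI-/- cells, against 6.31 and 7.19 in WT cells. The TACI-/- values lay between the WT values, and the log2 fold change was -0.08 ± 0.28 (SE; adjusted p = 0.977 by limma). The 95% interval, -0.76 to 0.61, leaves room for sizeable change in both directions. The mixed set of H1f4, H2bc4, H2bc6 and H2bc8 was at 4.99 and 4.63 in TACI-/- cells, against 5.44 and 5.23 in WT cells. Its arrays did not overlap, with a log2 fold change of -0.52 ± 0.18 (SE, limma unadjusted p = 0.0235, adjusted p = 0.558). With any of the arrays left out it lay between -0.71 (TACI-/- replicate 1) and -0.34 (TACI-/- replicate 2). H1f1, H1f3 and H1f5, which encode replication-dependent linker histones, had no array above the filter. The germ cell forms H1f6, H1f7 and H1f8 had none either. H1f10, a replication-independent linker histone, was at 3.56 and 3.57 in TACI-/- cells, against 3.90 and 3.35 in WT cells. Its other probe set, shared with Gm5577, lay between 2.27 and 2.37 on the 4 arrays.

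The H2A probe sets were split around 0, with 5 of 9 below (55.6%, against 50.1% of all tested) and 4 above and a median of -0.04. These sets include some that repeat the values of another, and over distinct values the median was 0.05. The set shared by H2ac18, H2ac19 and H2ac20 of the Hist2 cluster was at 9.50 and 9.34 in TACI-/- cells, against 9.28 and 9.87 in WT cells (log2 fold change -0.15 ± 0.22, SE). H2ac10, whose promoter is shown above, was at 6.90 and 6.42 in TACI-/- cells, against 6.34 and 6.76 in WT cells. The genotypes overlapped in both. H2ac20 alone was at 5.02 and 4.36 in TACI-/- cells, against 4.95 and 5.46 in WT cells, a difference of -0.51 ± 0.27 on the log2 scale (SE; adjusted p = 0.68 by limma). It overlapped as well, because TACI-/- replicate 1 was above WT replicate 1, and the difference ran from -0.84 to -0.18 over the arrays left out. The set headed by H2ac6 (17291204, 10 H2A genes) had the highest log2 fold change of the family, 0.39 ± 0.24 (SE), at 5.65 and 4.95 in TACI-/- cells, against 4.84 and 4.99 in WT cells. The sets of 12 and 10 H2A genes (17285703 and 17291012) had differences near 0, -0.04 ± 0.17 and 0.05 ± 0.22 on the log2 scale (SE). H2ac1, a testis histone gene (TH2A), was at 3.77 and 4.72 in TACI-/- cells, against 3.77 and 4.17 in WT cells.

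Of the 11 H2B probe sets, 10 lay below 0 in log2 fold change, against 50.1% of all tested probe sets. These sets include a pair with the same values, and the H2B median was -0.20 (-0.21 over distinct values). That median was -0.40 with TACI-/- replicate 1 left out, -0.01 with TACI-/- replicate 2 left out and -0.11 with WT replicate 1 left out. The set 17290997, shared by H2bc7, H2bc11, H2bc13 and H2bc15, was at 8.71 and 8.23 in TACI-/- cells, against 8.86 and 8.58 in WT cells (log2 fold change -0.25 ± 0.20, SE, limma adjusted p = 0.802). Its sister set 17291190, of the same 4 genes, had -0.50 ± 0.31 on that scale, and the sets of 12 H2B-family symbols (17285691 and 17285710) had -0.18 ± 0.21 and -0.18 ± 0.19 (SE). The octamer-bearing H2bc3 was at 5.88 and 5.44 in TACI-/- cells, against 6.20 and 5.66 in WT cells. H2bc18, which also carries the octamer, was at 5.45 and 5.09 in TACI-/- cells, against 5.14 and 5.46 in WT cells. Their log2 fold changes were -0.27 ± 0.24 and -0.03 ± 0.19 (SE), and the genotypes overlapped in both. Arrays lay lower in TACI-/- cells without overlap in 2 of 11 H2B sets (18.2%, against 18.6% of all tested). These were 17285834 (H2bc4, H2bc6 and H2bc8) and H2bc21. The first was at 4.28 and 4.65 in TACI-/- cells, against 5.13 and 4.70 in WT cells, a difference of -0.45 ± 0.21 on the log2 scale (SE; adjusted p = 0.622 by limma). Its sister set 17285851, of the same 3 genes, overlapped, at 4.68 and 5.02 in TACI-/- cells, against 5.42 and 4.68 in WT cells. H2bc21, which in human cells is known to give polyadenylated mRNA outside S phase, averaged 3.83 ± 0.24 in TACI-/- cells and 4.06 ± 0.03 in WT cells (SD, n = 2), close to the filter. H2bc9 was at 3.79 and 3.37, against 3.18 and 3.90 in WT cells.

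The 3 tested H3 sets disagreed in sign. Set 17291183, of 8 genes headed by H3c13, was at 5.53 and 4.96 in TACI-/- cells, against 5.72 and 5.83 in WT cells. Its log2 fold change was -0.53 ± 0.21 (SE, limma unadjusted p = 0.0434, adjusted p = 0.603), and the arrays did not overlap. It was -0.81 with TACI-/- replicate 1 left out and -0.24 with TACI-/- replicate 2 left out. Set 17400555, annotated to the same 8 genes, was at 6.63 and 6.27 in TACI-/- cells, against 5.76 and 6.59 in WT cells. It had a log2 fold change of 0.27 ± 0.29 (SE) and overlapped between genotypes. Set 17285680, of H3c1, H3c8, H3c10 and H3c11, was at 5.67 and 5.46 in TACI-/- cells, against 5.80 and 6.02 in WT cells (-0.35 ± 0.15, SE, limma adjusted p = 0.622), without overlap. Sets 17291183 and 17400555, with the same gene list, therefore differed in sign, though their intervals overlapped (-1.03 to -0.02 and -0.42 to 0.97). Tested H2B sets with the same gene list did share a sign.

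Among all tested probe sets, 50.1% lay below 0 in log2 fold change, and all 6 tested H4 sets did. Their median was -0.27, and -0.02 without TACI-/- replicate 2. H4c9 had the smallest p of the family. It was at 4.66 and 4.59 in TACI-/- cells, against 5.02 and 5.12 in WT cells, means of 4.62 ± 0.05 and 5.07 ± 0.06 (SD, n = 2). The arrays of a genotype lay close together and those of different genotypes apart, with a 1.36-fold lower value in TACI-/- cells (log2 fold change -0.45 ± 0.13, SE, 95% interval -0.77 to -0.12). The limma unadjusted p was 0.0144 and the adjusted p 0.491, and the log2 fold change lay between -0.49 and -0.40 with any of the arrays left out. H4c12, whose promoter carries the same GGTCCG motif, was at 8.60 and 8.34 in TACI-/- cells, against 8.19 and 9.07 in WT cells. Its WT replicates differed by 0.88, more than the log2 fold change of -0.15 ± 0.29 (SE). H4c14, of the Hist2 cluster, was at 4.98 and 4.30 in TACI-/- cells, against 5.10 and 4.78 in WT cells. H4c1 was at 4.17 and 3.40, against 3.63 and 4.14 in WT cells. The set of 6 H4 genes (17285706), H4c9 among them, was at 4.01 and 3.56 in TACI-/- cells, against 3.88 and 4.19 in WT cells. Unlike the set of H4c9 alone, it overlapped between genotypes. The lowest log2 fold change of the family, -0.88 ± 0.47 (SE), belonged to set 17285846 of 13 H4 genes, H4c9 again among them. It came from TACI-/- replicate 2 (2.54), since TACI-/- replicate 1 (4.11) lay between the WT arrays (4.09 and 4.32). The genotypes therefore overlapped in this set too.

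Another 5 probe sets fell outside the rule because their current symbols begin otherwise, though their older symbols began Hist3h or Hist4h. Of these, H2aw (older symbol Hist3h2a) was at 5.39 and 5.02 in TACI-/- cells, against 5.74 and 5.70 in WT cells, with a log2 fold change of -0.51 ± 0.17 (SE, limma unadjusted p = 0.0207, adjusted p = 0.542). H2aw lies on chromosome 11, as does the targeted gene Tnfrsf13b, with 48 protein-coding genes between them in the gene order of GRCm38.p6. Whether DNA flanking the targeted allele bears on its value was not tested. H4f16 (older symbol Hist4h4) had positive log2 fold changes on both sets that carry it alone, 0.33 ± 0.16 and 0.11 ± 0.20 (SE). The 6 tested H4 sets above were negative, and of those, set 17285846 also carries the symbol H4f16. The sets of H2bu2 and H2bu1-ps were below the filter on every array.

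Spread between arrays of a genotype was larger for histone probe sets than for the array at large. The 2 TACI-/- arrays differed by a median of 0.42 log2 units over the 31 tested histone sets, against 0.17 over all tested probe sets. For the 2 WT arrays the medians were 0.32 and 0.16. The median size of the genotype difference was 0.23 for histone sets and 0.13 over all tested probe sets. In both it was smaller than either replicate spread. A difference between means of 2 arrays varies less than one between single arrays, so that order says nothing particular about histones. The replicate differences also ran the same way within classes. TACI-/- replicate 1 exceeded replicate 2 in 26 of 31 sets (83.9%, against 56.1% of all tested). WT replicate 2 exceeded replicate 1 in 9 of 9 H2A, 3 of 3 H3 and 5 of 6 H4 sets but in 2 of 11 H2B sets, which makes 20 of 31 with H1f2 (64.5%, against 48.8% of all tested). Both held in 18 of 31 sets (58.1%, against 28.7% of all tested). These counts include sets that repeat the values of another, and both held in 16 of the 28 distinct sets (57.1%). The cause of these differences between arrays was not tested.

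**Figure D3:**
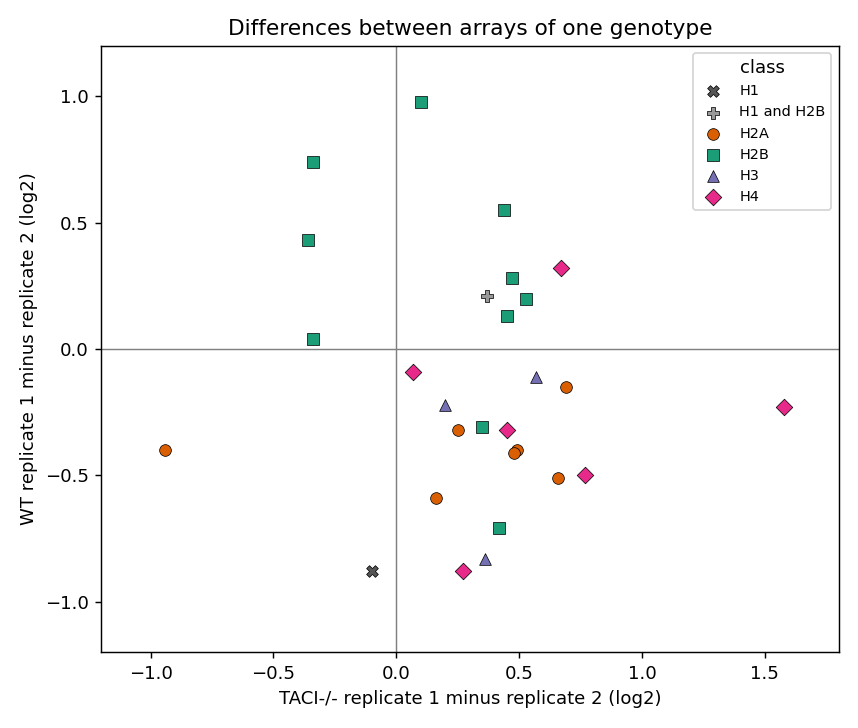
Difference between replicates 1 and 2 of TACI-/- cells (horizontal axis, log2) and of WT cells (vertical axis, log2) for each of the 28 distinct tested histone probe sets, with symbols by class. The H3 sets and most H2A and H4 sets lie at lower right, with TACI-/- replicate 1 and WT replicate 2 the higher arrays, while most H2B sets lie above 0 on the WT axis.

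Genes that work with histones were measured on the same arrays, and no member of these lists passed an adjusted p under 0.05. Over all tested probe sets, 50.1% had a log2 fold change below 0. At an unadjusted limma p under 0.05, 4.3% were higher and 3.86% lower, and 19.6% lay higher without overlap. Of the replacement variants, 4 of 6 tested members had a positive log2 fold change (median 0.18). H2az1, which encodes H2A.Z.1, was at 5.06 and 4.85 in TACI-/- cells, against 4.40 and 4.64 in WT cells (0.44 ± 0.16, SE, limma unadjusted p = 0.0295, adjusted p = 0.57). It was the variant with an unadjusted p under 0.05, and its arrays did not overlap. H2ax, the variant phosphorylated at DNA breaks, had 0.32 ± 0.26, H2az2 0.25 ± 0.14 and H2aj -0.26 ± 0.18 on the same scale. Of 17 tested genes of histone transcription and mRNA processing, 8 were positive and 9 negative (median -0.02), and 0 had an unadjusted limma p under 0.05. Slbp, which binds the stem-loop of histone mRNAs, was at 6.63 and 6.10 in TACI-/- cells, against 5.96 and 6.01 in WT cells (0.38 ± 0.20, SE). Npat, the coactivator of histone gene transcription, and Hinfp, which binds H4 promoters, had log2 fold changes of 0.08 ± 0.13 and -0.08 ± 0.13 (SE).

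Histone chaperones, which carry histones to and from DNA, had a median of 0.09 over 14 tested members. Nasp, a chaperone of H3 and H4 and of linker histones, was at 6.59 and 6.37 in TACI-/- cells, against 6.01 and 5.89 in WT cells (0.53 ± 0.15, SE, limma unadjusted p = 0.0107, adjusted p = 0.431). Anp32e, which removes H2A.Z from nucleosomes, was at 5.01 and 4.83, against 4.47 and 4.23 in WT cells (0.57 ± 0.16, SE, adjusted p = 0.426). These were the 2 chaperones with an unadjusted limma p under 0.05, and neither overlapped between genotypes. Of all tested probe sets, 4.3% were higher at that threshold and 19.6% lay higher without overlap. Of 24 tested S phase and cell cycle genes, 19 were positive (median 0.14), against 50.1% of all tested probe sets below 0. An unadjusted limma p under 0.05 was reached by 3, all higher, against 4.3% of all tested higher. These were Stmn1, a microtubule regulator (0.64 ± 0.13, SE), Pcna, the sliding clamp of DNA replication (0.45 ± 0.15), and the cyclin gene Ccnb2 (0.45 ± 0.18). Their adjusted limma p ran from 0.32 to 0.608. The proliferation marker Mki67 was at 4.67 and 4.48 in TACI-/- cells, against 4.19 and 4.37 in WT cells, and Top2a lay at the filter. The median of the cell cycle list was thus positive beside a negative median for the histone sets; the difference between the lists was not tested.

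**Figure D4:**
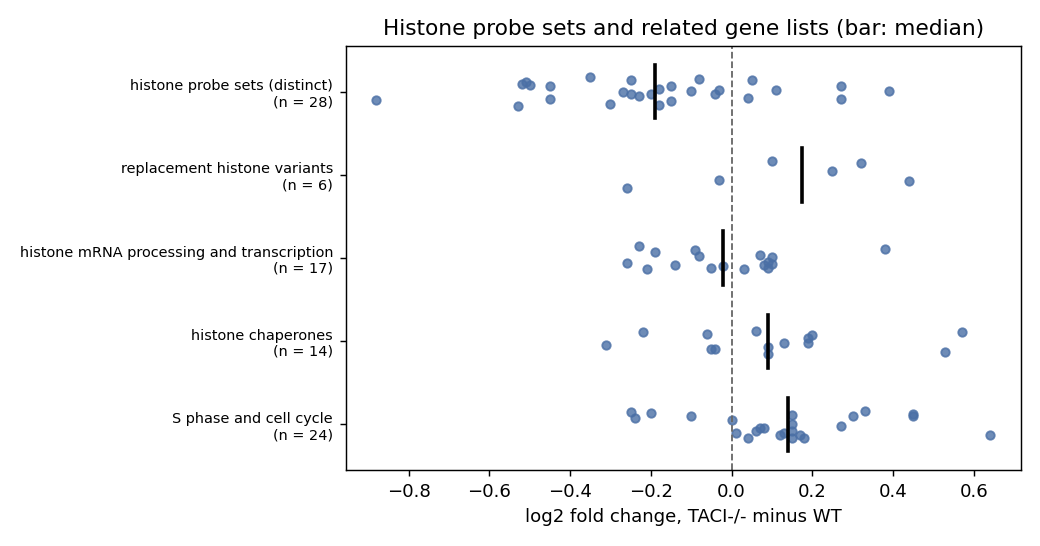
Log2 fold change (TACI-/- minus WT, horizontal axis) of each tested member of the histone family (28 distinct probe sets) and of 4 related gene lists, with the median as a bar. The histone median is -0.19, while those of the variant, chaperone and cell cycle lists are 0.18, 0.09 and 0.14.

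Across the series the arrays were alike, with medians of 4.11 to 4.13 log2 units over all probe sets and correlations over tested probe sets of 0.979 within TACI-/-, 0.984 within WT and 0.971 to 0.98 between genotypes. The sort markers Cd4, Cd3e, Cd3g, Ccr7, Il7r and Lef1 lay between 9.66 and 11.6 on every array. Of these 6, 5 had a negative log2 fold change, as most histone sets did, against 50.1% of all tested probe sets. Il7r had an unadjusted limma p of 0.0171 (-0.48 ± 0.15, SE, adjusted p = 0.519). Cd3e, Cd3g and Il7r were lower in TACI-/- cells without overlap, as were 18.6% of all tested probe sets. Of the genes sorted against, Cd8a was below the filter on every array, while Cd44 and Il2ra were above it on all 4. Cd44 was at 6.00 and 5.83 in TACI-/- cells, against 5.65 and 5.79 in WT cells, and Il2ra at 5.25 and 4.83, against 4.85 and 4.65 in WT cells. Neither had an unadjusted limma p under 0.05. Markers of other cells were measured beside the histone values, and their part in them was not tested. Averaged over a list in log2 units, B cell markers were at 4.57 and 4.39 in TACI-/- cells, against 4.10 and 4.24 in WT cells, with 4 of 4 tested members positive and Ms4a1 below the filter. H2-Aa had the lowest p of them (0.57 ± 0.15, SE, limma unadjusted p = 0.00777, adjusted p = 0.4) and did not overlap. Regulatory T cell markers were at 5.51 and 5.38, against 4.62 and 4.58 in WT cells, with 4 of 4 positive. Log2 fold changes were 1.57 ± 0.14 for Ctla4, 0.94 ± 0.13 for Ikzf2, 0.58 ± 0.16 for Foxp3 and 0.29 ± 0.18 for Il2ra (SE). Ctla4 passed (limma adjusted p = 0.0403), while Ikzf2 (0.139) and Foxp3 (0.428) did not. All but Il2ra lay higher without overlap, as did 19.6% of all tested probe sets. Ikzf2 reached the filter in TACI-/- cells only (3.41 and 3.49 in WT cells), so those arrays alone led to its being tested. Myeloid markers were at 3.89 and 3.90, against 4.02 and 3.89 in WT cells, with 1 of 3 tested members positive and Cd14 below the filter. Lyz2 was lower without overlap (-0.49 ± 0.15, SE, limma unadjusted p = 0.0176, adjusted p = 0.522). NK cell markers were at 3.98 and 4.22, against 3.74 and 4.31 in WT cells, with Klrb1c below the filter on every array and Ncr1 above it on 1. The tested NK marker, Nkg7, was at 5.68 and 5.75, against 5.45 and 5.64 in WT cells (0.17 ± 0.14, SE), without overlap. Plasma cell markers were at 4.71 and 4.54, against 4.68 and 4.49 in WT cells, with Jchain below the filter. The erythroid list had 0 members on a probe set with 1 symbol.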

How the data were processed

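RNA from sorted naive CD4+ T cells was labelled with biotin and hybridised to 4 one-colour arrays, per the labels' protocols. The deposited table held 1 log2 value per probe set and array; the submitters' processing notes name RMA (background correction, quantile normalization and probe set summary) and the Partek software, with no version. That the log base is 2 was taken from RMA and the range of the values, 0.94 to 13.2. Arrays have no depth, and 2 per genotype limit the precision. The titles call these arrays biological replicates. P-values rest on a moderated variance, drawn partly from a probe set's own arrays and partly from all tested probe sets. Histone sets spread more between arrays than the array at large. Moderation therefore tends to make their standard errors and p-values smaller than their own arrays alone would give. An exception is H4c9, whose moderated SE of 0.13 exceeded its SDs of 0.05 and 0.06.

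Of 41345 probe sets, 23521 had 1 gene symbol in the platform annotation, 1814 several and 16010 none there. Sets with a symbol were tested where at least 2 arrays reached the 40th percentile (15966 sets), with limma 3.58.1 in R 4.3.3 (lmFit and eBayes, a two-sided test of genotype alone, Benjamini-Hochberg adjustment over all of them, threshold 0.05). Each difference is the TACI-/- mean less the WT mean in log2 units, with the moderated standard error (SE; 4.21 prior degrees of freedom) or the standard deviation (SD). For the other gene lists, a gene was represented by its brightest probe set with 1 symbol. The fit was tested on simulated data. Symbols, chromosomes and gene order came from RefSeq (GRCm38.p6), since the array table gives no build.

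Named members were those past the threshold, the tested sets with 1 symbol that ranked by p or level within a class, members outside the Hist1 and Hist2 clusters, and sets with several symbols at an unadjusted p under 0.05. From the other lists, up to 4 members by p, Slbp, Npat, Mki67, Top2a and Pcna were named. Further probe sets in the text, including the sets with several symbols, H2aw, H4f16, Hinfp, H2ax, H2az2 and H2aj, and the promoters shown were picked with their values in view. The members and lists were chosen with earlier results of these data known. Alternatives were other filters and sets of rows, other scalings, variance models without or with a trend, a replicate block and leaving out each array. The genotypes share replicate numbers, but no label ties arrays of the same number.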

Additional observations from a re-analysis of the deposited data

How the results depend on the processing

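No histone probe set passed an adjusted p under 0.05 in any of the limma fits on all 4 arrays. Those fits called few probe sets of any kind, from 0 with no variance moderation to 28 with a variance trend. The absence of histone sets among them therefore carries little weight. For fits with an array left out, effect sizes are given here and counts of sets passing are not. The lower count at an unadjusted p under 0.05 was 1 with no variance moderation and 1 with only probe sets of 1 symbol, which leaves 12 histone sets; the higher count was 1 with no filter, which adds dim sets. The median log2 fold change of H3 was -0.07 with no filter and that of H4 ranged from -0.48 to -0.02 over the arrays left out. The median over all histone sets was -0.29 to -0.02 there and -0.18 with median centring and with quantile normalization again. Sets without overlap between genotypes numbered 3 higher and 10 lower with no filter, and 2 lower with 1 symbol only. They numbered 1 to 10 higher and 6 to 19 lower with an array left out, where fewer arrays make overlap rarer. No share over all tested probe sets was taken in these settings, so such counts cannot show whether histone sets stand out. Including the sets with older symbols Hist3h or Hist4h, chosen after seeing the data, made 1 higher and 7 lower without overlap. It also gave 4 lower at an unadjusted limma p under 0.05 and an H4 median of -0.20.

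Signs that changed with an array left out had ranges of -0.13 to 0.35 for H2ac10, -0.52 to 0.36 for H1f2, -0.54 to 0.00 for H2bc3, -0.20 to 0.74 for H2ac1, -0.59 to 0.29 for H4c12, -0.32 to 0.39 for H2bc9, -0.49 to 0.28 for H4c1, -0.21 to 0.14 for H2bc18 and -0.64 to 0.03 for H4c14. The causes were not tested. The replicate block left the counts at 0 higher and 3 lower at an unadjusted p under 0.05 and the median at -0.18; deviations of same-numbered arrays correlated at -0.0851, and the block lowered the calls over all probe sets to 4, against 14. With no filter there were 4 such calls, with every table row tested there were 5, with a variance trend 28 and with no moderation 0 (1112 at an unadjusted p under 0.05). Signal near background limits the 37 untested sets.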
